A study of Mus musculus with 20 samples.

Results

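The insulin-like growth factor (IGF) and insulin signalling genes described here are 10 genes of the preoptic area of the male mouse: the ligands Igf1 and Igf2, the receptors Igf1r and Insr, the receptor substrates Irs1 and Irs2, and the binding proteins Igfbp2, Igfbp3, Igfbp4 and Igfbp5. They were taken by symbol from a table of 25239 genes, and all 10 were present and passed the filter on low counts in every comparison. The rule used no level or test result, but the genes were chosen with earlier results of these data known.

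IGF1 and IGF2 are secreted peptides that bind the IGF1 receptor, and insulin binds the closely related insulin receptor. Both receptors are tyrosine kinases that phosphorylate the substrates IRS1 and IRS2, which pass the signal to PI3 kinase, AKT and mTOR and restrain the FOXO transcription factors. IGF-binding proteins hold the IGFs in the extracellular space, and proteases that cleave them set the ligands free. In the hypothalamus, IGF1 and insulin carry signals of growth and energy supply to the neuronal network that controls gonadotropin-releasing hormone (GnRH).

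The question was how long cohabitation with a female changes the preoptic area (POA), the brain region that holds most GnRH neurons, in normal mice and in mice with impaired FGF signalling. Male mice were paired at postnatal day (PND) 20 with a same-sex (SS) or an opposite-sex (OS) partner and kept so for 300 days, until PND320. OS pairs were left to breed. The dnFGFR mice were homozygous for a transgene that encodes FGFR1 without its kinase domain, under a rat GnRH promoter, so that the transgene was directed to GnRH neurons and not to the other cells of the POA, and control mice of the same background came from matings of heterozygous dnFGFR siblings. Housing and genotype thus gave 4 groups, named by genotype and partner (dnFGFR OS, for example), with 5 mice in each and 1 RNA sample of the POA per mouse.

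Between 32353578 and 39871353 reads were counted per mouse. With 18416 genes that had any reads, dnFGFR OS replicate 5 stood below the other 19 mice (19101 to 19659 genes), and values of Igf1, Igfbp2, Igf1r, Irs1 and Igfbp4 are also given without this mouse. Of 10 transcripts that mark the preoptic area, 10 passed the filter, with summed levels of 92.3 to 143.7 CPM (counts scaled to library size and composition) over the 20 mice. Transcripts of the striatum, a neighbouring region, were also present, at 2046 to 4084 CPM. By the study's sample list, 9 of 10 dnFGFR mice were killed before all control mice and 1 after them, so that the genotype cannot be told apart from the date. In bulk tissue, fewer cells of a type and less RNA per cell cannot be told apart either.

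Per length of exon sequence, Igfbp5 had the highest mean of the 10 genes at 28.7 ± 2.73 reads per kilobase, scaled to library size (RPKM; mean ± SD, n = 20 mice), and Igf1 was the lowest at 0.543 ± 0.102 RPKM. Igfbp4 stood at 15.9 ± 2.16, Igfbp2 at 15.4 ± 7.82 and Irs2 at 15.3 ± 1.74 RPKM. Igf2 followed at 10.7 ± 4.30, Igf1r at 7.48 ± 0.957 and Insr at 7.11 ± 0.774 RPKM. The last steps before Igf1 were Igfbp3 at 3.37 ± 0.491 and Irs1 at 1.94 ± 0.227 RPKM. Igfbp5 exceeded Igfbp4 in 20 of 20 mice, and the same held for Insr over Igfbp3, Igfbp3 over Irs1 and Irs1 over Igf1, whose ranges did not overlap. Igfbp2 exceeded Igfbp5 in 1 mouse, control OS replicate 2, at 28.2 against 25.5 RPKM. From Igfbp4 down to Insr each gene's range overlapped the next, and Igfbp2 was above Irs2 in only 8 of 20 mice. The binding proteins Igfbp5, Igfbp4 and Igfbp2 thus held 3 of the 4 highest levels per length.

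**Figure D1:**
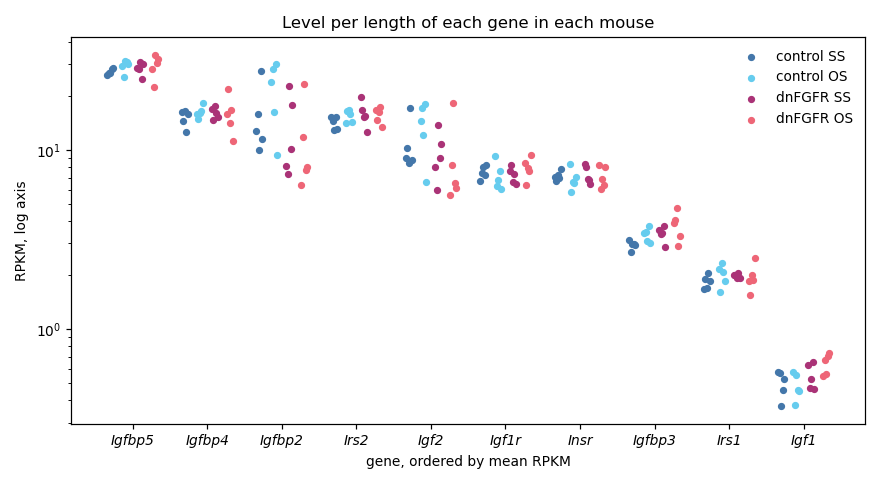
Level per exon length (RPKM, log axis) of the 10 genes, ordered by their mean over 20 mice. Each point is 1 mouse, coloured by group. Igfbp5 has the highest mean, with Igfbp2 above it in control OS replicate 2 alone, Igf1 lies below them at 0.370 to 0.734 RPKM, and Igfbp2 and Igf2 have the widest spread.

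The mice differed most in Igfbp2 and Igf2. Over the 20 mice Igfbp2 ranged 4.73-fold, from 9.26 to 43.8 CPM, and Igf2 3.23-fold, from 29.5 to 95.2 CPM. The other 8 genes ranged between 1.45-fold for Insr and 1.98-fold for Igf1. Within groups, the SD of log2 CPM was 0.68 for Igfbp2 and 0.55 for Igf2, against a median of 0.18 over the 17445 genes that passed the filter across the 4 groups. That of the other 8 lay between 0.15 for Igfbp5 and 0.24 for Igf1. The housing and genotype comparisons of Igfbp2 and Igf2 therefore carried the widest intervals of the 10.

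Igf1 lies at chr10:87858265-87937047 of GRCm38 and encodes the growth hormone-regulated ligand, which neurons and glia also make locally. Its level was 5.71, 5.60, 3.67, 4.52 and 5.22 CPM in the control SS mice, and 5.68, 3.71, 5.45, 4.51 and 4.46 CPM in the control OS mice. The dnFGFR SS mice had 6.23, 4.61, 5.21, 6.46 and 4.59 CPM, and the dnFGFR OS mice had 5.37, 6.65, 5.57, 7.03 and 7.27 CPM. The dnFGFR OS group was the highest, but it overlapped control OS, since 2 of its 5 mice were within the control range. Counts were 130 to 251 reads per mouse, the fewest of the 10 genes.

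Between the OS-housed groups, Igf1 was 1.34-fold higher in dnFGFR mice (95% interval 1.07 to 1.68; log2 fold change 0.42, SE 0.152), with an unadjusted p of 0.0159 and an adjusted p of 0.655 by edgeR's quasi-likelihood test, so the difference did not pass the threshold of 0.1. Without dnFGFR OS replicate 5 its log2 fold change was 0.37, and after correction for GC content and length it was 0.34. Igf1 has a GC content of 38.0%, at the 2.15 percentile of the genes that passed the filter. In SS-housed mice the genotype log2 fold change was 0.13 (adjusted p = 0.859 by edgeR). OS housing gave -0.05 in control mice and 0.24 in dnFGFR mice (0.03 and 0.20 on dates with mice of both housings), and the difference between the 2 housing effects was 0.29 (SE 0.211, adjusted p = 0.963 by edgeR).

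Igf1 was higher in mice with more neuronal transcripts. Its log2 CPM correlated with that of 7 summed neuronal markers at r = 0.73 over 20 mice (permutation p = 0.00033, adjusted p = 0.011 over 100 relations of a gene with a marker list), with rho = 0.773 (permutation p = 0.00013, adjusted p = 0.013). It was 0.635 without the 2 mice farthest from the median, 0.396 in the 10 control mice and 0.835 in the 10 dnFGFR mice. The neuronal markers summed to 4476 to 4877 CPM in control OS mice and to 4839 to 5622 CPM in dnFGFR OS mice, where 0 of 7 passed the test between the 2 groups and none was at 0 reads. The permutations ran over all 20 mice regardless of group, so differences between groups enter these p-values. The part of the neuronal markers in the Igf1 values was not tested.

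Igf2, at chr7:142650768-142666816, encodes the second IGF ligand, an imprinted gene known in the adult brain for its expression in choroid plexus and meninges. It was counted at 47.4, 53.8, 44.0, 89.9 and 45.9 CPM in control SS mice and at 76.0, 90.0, 63.6, 95.1 and 34.7 CPM in control OS mice. In the dnFGFR SS group the values were 42.2, 31.2, 72.6, 47.0 and 56.3 CPM, and in the dnFGFR OS group 29.5, 43.4, 95.2, 34.3 and 32.1 CPM. Each group held high and low mice, and the groups overlapped in all comparisons. H19, the imprinted noncoding RNA next to Igf2, had 29 reads over the 20 mice. The antisense gene Igf2os overlaps Igf2 and had 368 reads in all, at most 46 in a mouse, and the strand setting of the counting is not given in the sources used here.

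Igf2 did not pass the test in any comparison. The log2 fold change with OS housing was 0.35 (SE 0.236, adjusted p = 0.800 by edgeR) in control mice and -0.09 (SE 0.308, adjusted p = 0.960) in dnFGFR mice. The genotype gave -0.17 (SE 0.217, adjusted p = 0.881) in SS mice and -0.62 (SE 0.326, adjusted p = 0.740) in OS mice. On the dates that held both housings, the housing values were 0.53 in control and -0.10 in dnFGFR mice. Single mice moved these values. Without control SS replicate 4 the housing value in control mice was 0.59 (adjusted p = 0.449) and the genotype value in SS mice 0.06 (adjusted p = 0.969). Without dnFGFR OS replicate 3 the housing value in dnFGFR mice was -0.52 (adjusted p = 0.916) and the genotype value in OS mice -1.05 (adjusted p = 0.429).

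Igfbp2, at chr1:72824480-72852474, encodes a binding protein with a preference for IGF2 that is abundant in cerebrospinal fluid. Its level was 18.6, 23.2, 14.5, 40.0 and 16.7 CPM in control SS mice and 34.8, 41.1, 23.8, 43.8 and 13.7 CPM in control OS mice. The dnFGFR SS mice had 11.8, 10.7, 33.3, 14.7 and 25.9 CPM, and the dnFGFR OS mice had 9.26, 17.2, 34.1, 11.2 and 11.6 CPM. The mice that were high for Igf2 were also high here: control SS replicate 4, control OS replicate 4, dnFGFR SS replicate 3 and dnFGFR OS replicate 3 led their groups for both genes.

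Between the OS-housed groups Igfbp2 was 0.530-fold of control in dnFGFR mice (95% interval 0.307 to 0.913; log2 fold change -0.92, SE 0.364), with an unadjusted p of 0.0254 and an adjusted p of 0.655 by edgeR. This value was -1.35 without dnFGFR OS replicate 3 (adjusted p = 0.349), -0.82 without dnFGFR OS replicate 5 and -0.73 after correction for GC content and length. OS housing gave 0.47 (SE 0.294, adjusted p = 0.787) in control mice and -0.21 (SE 0.381, adjusted p = 0.914) in dnFGFR mice. Without control SS replicate 4 the first was 0.79 (adjusted p = 0.389), and without dnFGFR OS replicate 3 the second was -0.65 (adjusted p = 0.916). In mice killed on dates that held both housings the control value was 0.73 (2 SS against 5 OS) and the dnFGFR value -0.05 (2 SS against 4 OS). In SS mice the genotype value was -0.23, and 0.08 without control SS replicate 4.

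Igf2 and Igfbp2 moved together from mouse to mouse. Their log2 CPM correlated at r = 0.973 and rho = 0.970 over 20 mice (permutation p = 1e-05 for each, the smallest that the permutations can give; adjusted p = 0.00045 over 45 pairs of the 10 genes). The value was 0.973 without the 2 mice farthest from the median of Igf2, 0.985 in control mice and 0.955 in dnFGFR mice. Among all 17445 genes, Igfbp2 was the gene most like Igf2, and Igf2 the gene most like Igfbp2. The next were Pcolce (r = 0.933), an enhancer of procollagen processing, and Wdr86 (r = 0.907) for Igf2, and Mfrp and C1qtnf5 (r = 0.920) for Igfbp2. Mfrp and C1qtnf5 had identical counts in every mouse and count as 1 signal.

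Promoters of the pair are shown because the 2 transcripts moved together. RefSeq promoter windows on GRCm38.p6, from 250 bases before to 50 after a start, were found for 9 of the 10 genes, all but Insr. For Igf2, which has 4 listed starts, and Igfbp2, which has 2, the window with the most kinds of motif is printed, at chr7:142657447-142657746 on the minus strand and chr1:72824230-72824529 on the plus strand, and capitals mark motifs on either strand.
Igf2: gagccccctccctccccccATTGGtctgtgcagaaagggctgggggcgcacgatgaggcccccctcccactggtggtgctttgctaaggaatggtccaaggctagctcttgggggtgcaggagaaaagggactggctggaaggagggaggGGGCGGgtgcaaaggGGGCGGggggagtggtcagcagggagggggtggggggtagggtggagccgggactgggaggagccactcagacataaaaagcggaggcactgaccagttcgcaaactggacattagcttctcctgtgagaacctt
Igfbp2: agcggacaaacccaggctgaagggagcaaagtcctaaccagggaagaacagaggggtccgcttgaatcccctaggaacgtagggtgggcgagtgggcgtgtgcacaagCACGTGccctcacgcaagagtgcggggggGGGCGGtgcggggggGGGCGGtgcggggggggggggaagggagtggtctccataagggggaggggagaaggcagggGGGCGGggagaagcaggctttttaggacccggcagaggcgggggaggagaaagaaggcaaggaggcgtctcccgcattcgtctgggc
Both windows held GC boxes (GGGCGG), 2 in Igf2 and 3 in Igfbp2. The Igf2 window also held a CCAAT box (CCAAT) on the opposite strand, and the Igfbp2 window an E-box (CACGTG). Of 32851 promoter windows of this length, 35.66% held a GC box, 37.41% a CCAAT box and 7.15% an E-box, so the GC box that the pair shares is common. These rates are of windows that were not chosen for their motifs, as the printed ones were. The other listed Igfbp2 window and some of the other Igf2 windows held none of the motifs searched for.

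Choroid plexus transcripts moved with Igf2 and Igfbp2. The choroid plexus is the epithelium that secretes cerebrospinal fluid, and its pieces can stay attached to blocks of this region. All 10 markers on the list passed the filter, and their summed level ranged from 39.7 to 1112 CPM in control SS mice, 56.4 to 2001 in control OS, 40.9 to 1620 in dnFGFR SS and 38.4 to 2228 in dnFGFR OS. The medians were 133.7, 1453, 54.6 and 237.6 CPM. Ttr, the transthyretin gene that defines this epithelium, ranged from 0.208 to 1992 CPM, and Folr1 was at 0 reads in at least 1 mouse. In no comparison did any of the 10 markers pass the test, and their median log2 fold change was 1.37 for OS housing in control mice, 0.525 for OS housing in dnFGFR mice, 0.0598 for genotype in SS mice and -0.93 for genotype in OS mice. Igf2 and Igfbp2 had the sign of the list in the first and the last of these and the opposite sign in the other 2.

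Over the 20 mice the summed markers correlated with Igf2 at r = 0.789 (rho = 0.725; permutation p = 0.00011 and 0.00049; adjusted p = 0.0055 and 0.0245 over 100 relations) and with Igfbp2 at r = 0.820 (rho = 0.707; permutation p = 4e-05 and 0.00074; adjusted p = 0.004 and 0.0247). Without the 2 mice farthest from the median the values of r were 0.811 and 0.855. They were 0.934 and 0.954 in control mice, and 0.658 and 0.723 in dnFGFR mice. The 6 mice with 1112 to 2228 CPM had the 6 highest values of both genes. The 8 mice with the lowest sums, 38.4 to 57.2 CPM, had 31.2 to 47.0 CPM of Igf2 and 10.7 to 17.2 CPM of Igfbp2, and the other 12 had 29.5 to 95.2 and 9.26 to 43.8 CPM. This split lies at the widest gap in the sums. Among the 8 mice the relation was reversed, at r = -0.802 (rho = -0.762) for Igf2 and -0.833 (rho = -0.881) for Igfbp2. Among the 12 mice r was 0.837 and 0.816. Igf2 and Igfbp2 correlated with each other at r = 0.752 in the 8 mice and 0.979 in the 12. Of the marker sums, Clic6, a chloride channel gene, made up 27.2 CPM or more in every mouse, and so a large part of the sums of the 8 mice. Ttr was at 0.208 to 17.8 CPM in these 8. Whether the reversed relation concerns choroid plexus RNA was not tested. The 12 markers of leptomeninges and perivascular fibroblasts, another known source of both transcripts, all had reads in every mouse, and their summed level correlated with Igf2 at r = 0.269 (rho = 0.269; permutation p = 0.251 and 0.250; adjusted p of r = 0.525 over 100 relations) and with Igfbp2 at r = 0.212 (rho = 0.250; permutation p = 0.369 and 0.288; adjusted p of r = 0.598). The part of choroid plexus RNA in the group differences was not tested.

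**Figure D2:**
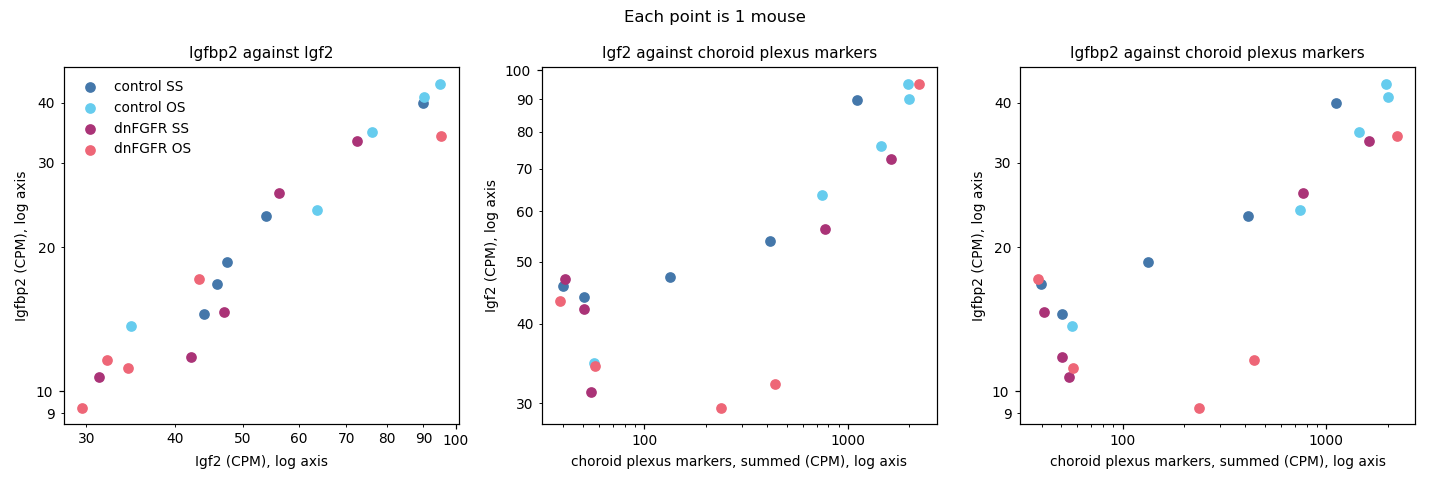
Igfbp2 against Igf2 (left), and Igf2 (middle) and Igfbp2 (right) against the summed level of 10 choroid plexus markers, all in CPM on log axes. Each point is 1 mouse, coloured by group. The points of the left panel follow 1 line in all groups, and the 6 mice with 1112 to 2228 CPM of the markers have the 6 highest values of both genes.

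Of the receptors, Igf1r at chr7:67952257-68233668 encodes the receptor of both IGFs. Its level was 76.0, 84.3, 91.2, 83.0 and 94.5 CPM in control SS mice, 106, 71.2, 77.6, 87.3 and 69.3 CPM in control OS mice, 87.2, 93.5, 75.2, 83.8 and 73.5 CPM in dnFGFR SS mice and 96.3, 72.4, 90.7, 86.6 and 107 CPM in dnFGFR OS mice. The highest mice were control OS replicate 1 and dnFGFR OS replicate 5, and the groups overlapped. In the 4 comparisons of 2 groups the log2 fold changes lay between -0.06 for housing in control mice and 0.14 for genotype in OS mice, with an adjusted p of 0.819 or higher by edgeR, and the interval of the first ran from 0.826- to 1.11-fold. The difference between the 2 housing effects was 0.19 (SE 0.155, adjusted p = 0.963). Without dnFGFR OS replicate 5 the value for genotype in OS mice was 0.07, and that for housing in dnFGFR mice was 0.07 against 0.13 with it.

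Insr, the insulin receptor gene at chr8:3150922-3279649, was the gene with the narrowest range. It stood at 65.6, 62.9, 67.4, 64.9 and 73.4 CPM in control SS mice, 78.3, 54.0, 62.0, 61.4 and 66.3 CPM in control OS mice, 78.1, 75.1, 64.3, 63.8 and 60.4 CPM in dnFGFR SS mice and 76.8, 56.4, 64.5, 59.3 and 74.8 CPM in dnFGFR OS mice. The group means lay between 64.4 and 68.3 CPM. Its 4 log2 fold changes lay between -0.05 and 0.04, and their widest interval, for genotype in OS mice, ran from 0.869- to 1.22-fold. Igf1r and Insr correlated at r = 0.739 over the 20 mice (permutation p = 0.00016, adjusted p = 0.0036) with rho = 0.674 (permutation p = 0.00129, adjusted p = 0.029), at 0.654 without the 2 mice farthest from the median, and at 0.736 in control and 0.742 in dnFGFR mice. Both genes were lower in libraries whose reads, against the mean of their group, favoured GC-rich genes. Their own GC content was 49.4% for Igf1r and 46.8% for Insr, at the 47.5 and 33.6 percentiles of the genes that passed the filter. The slope on GC content was taken from a mouse's log2 CPM after the group mean of each gene was subtracted. GC bias shared by a whole group is therefore not in it, while the levels of the 10 genes kept their group means. With this slope, Igf1r correlated at r = -0.634 (rho = -0.597; permutation p = 0.00154 and 0.00615; adjusted p of r = 0.0077 over 10 relations) and Insr at r = -0.559 (rho = -0.510; permutation p = 0.00806 and 0.0228; adjusted p of r = 0.0201). Without the 2 mice farthest from the median these were -0.435 and -0.445.

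The substrates couple both receptors to PI3 kinase. Irs1 at chr1:82233105-82291439 was counted at 15.2, 17.5, 15.4, 18.7 and 17.0 CPM in control SS mice, 19.8, 14.6, 21.3, 18.9 and 16.9 CPM in control OS mice, 18.3, 18.3, 17.7, 18.7 and 17.7 CPM in dnFGFR SS mice and 17.0, 14.2, 18.2, 17.0 and 22.6 CPM in dnFGFR OS mice. The dnFGFR SS mice were the most alike in this gene, from 17.7 to 18.7 CPM, and the dnFGFR OS mice spanned the widest range. Its log2 fold changes lay between -0.04 and 0.13 in the 4 comparisons of 2 groups, and the interaction value was -0.15. Without dnFGFR OS replicate 5 the value for housing in dnFGFR mice was -0.13 against -0.03 with it, and that for genotype in OS mice -0.14 against -0.04. Irs1 had the strongest relation with GC content slope, at r = -0.755 (rho = -0.624; permutation p = 8e-05 and 0.00421; adjusted p of r = 0.0008), and -0.509 without the 2 mice farthest from the median.

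Irs2 at chr8:10984681-11008929, the substrate gene that FOXO factors switch on when insulin signalling is low, stood at 96.0, 91.0, 81.4, 96.6 and 82.4 CPM in control SS mice and at 89.4, 104, 106, 100 and 90.9 CPM in control OS mice. The values were 125, 106, 96.3, 97.5 and 79.8 CPM in dnFGFR SS mice and 105, 93.2, 103, 109 and 84.7 CPM in dnFGFR OS mice. Control SS mice were the lowest group by mean, at 89.5 ± 7.24 CPM (SD, n = 5), against 98.2 to 100.9 CPM in the other 3, and every group overlapped the others. For OS housing in control mice the log2 difference was 0.13 (SE 0.0660, adjusted p = 0.708 by edgeR), with an interval from 0.995- to 1.21-fold. For genotype in SS mice it was 0.17 (SE 0.0938, adjusted p = 0.653). The other 2 values were -0.02 for housing in dnFGFR mice (-0.16 on dates with mice of both housings) and 0.01 for genotype in OS mice. Reads over the overlapping gene 9530052E02Rik could be split between it and Irs2 by the counting.

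The promoters of Irs1 and Irs2 are shown in part because both held the core of the insulin response element (TGTTTTG), through which FOXO factors act on Irs2, beside an E-box (CACGTG). The stretches are chr1:82291500-82291579 and chr8:11008919-11008998, both on the minus strand, and capitals mark the motifs, which share 2 letters in Irs1.
Irs1: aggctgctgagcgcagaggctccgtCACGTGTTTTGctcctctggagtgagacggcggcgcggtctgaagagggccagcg
Irs2: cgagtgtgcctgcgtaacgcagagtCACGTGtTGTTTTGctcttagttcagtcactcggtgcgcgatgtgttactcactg
Of the 9 genes with a window, the core was found in these 2 and the E-box in 3. The core was in 6.28% of the 32851 windows, a share of windows and not of genes. The forkhead motif TGTTTAC was in none of the windows of the 9 genes and in 3.65% of all windows, and a TATA box (TATAAA) in that of Igfbp4 alone and in 13.62% of all, with both strands searched for each motif.

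Of the other binding proteins, Igfbp3 at chr11:7206086-7215498 encodes the main carrier of IGFs in blood. It was at 9.80, 8.46, 9.36, 9.34 and 9.20 CPM in control SS mice and at 10.7, 10.8, 9.71, 11.8 and 9.46 CPM in control OS mice. The dnFGFR SS mice had 11.2, 10.6, 10.7, 11.8 and 8.94 CPM, and the dnFGFR OS mice had 12.2, 12.7, 14.8, 9.13 and 10.3 CPM. The control SS group was the lowest by mean and had the least spread, but each other group held at least 1 mouse within its range. Igfbp3 was the gene with the smallest p in 2 comparisons. OS housing gave 1.14-fold in control mice (95% interval 1.00 to 1.29; log2 fold change 0.19, SE 0.0873, unadjusted p = 0.0496, adjusted p = 0.693 by edgeR). The dnFGFR genotype gave 1.15-fold in SS mice (95% interval 1.01 to 1.31; log2 fold change 0.21, SE 0.0879, unadjusted p = 0.0344, adjusted p = 0.526 by edgeR). The housing value in control mice was 0.24 on the dates that held both housings. The log2 fold changes of housing in dnFGFR mice (0.15) and of genotype in OS mice (0.17) had the same sign.

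Igfbp4 at chr11:99040005-99052655, whose protein is cleaved by the protease PAPP-A to free IGF, was at 63.6, 57.1, 64.9, 49.4 and 62.0 CPM in control SS mice, 62.5, 58.5, 62.6, 65.0 and 71.9 CPM in control OS mice, 66.3, 57.8, 69.2, 63.0 and 59.7 CPM in dnFGFR SS mice and 62.4, 85.9, 55.1, 65.4 and 43.8 CPM in dnFGFR OS mice. The highest and the lowest of all mice were dnFGFR OS replicates 2 and 5, the 2 libraries at the ends of the GC slope, 0.182 and -0.256 log2 units per 10 points of GC content. Igfbp4 correlated with that slope at r = 0.673 (rho = 0.328; permutation p = 0.00366 and 0.157; adjusted p of r = 0.0122), and at 0.0364 without the 2 mice farthest from the median, so the relation rests on those mice. Its negative correlation with Irs1, r = -0.579 (rho = -0.325; permutation p = 0.00832 and 0.162; adjusted p of r = 0.0936), was -0.125 without the 2 mice farthest from the median of Irs1 and rests on them too. The log2 fold changes of Igfbp4 lay between -0.04 and 0.11 in the 4 comparisons of 2 groups, with -0.13 for the interaction. Without dnFGFR OS replicate 5 the value was 0.09 for housing in dnFGFR mice and 0.06 for genotype in OS mice, against -0.01 and -0.04 with it. The value for housing in dnFGFR mice was -0.16 on the dates that held both housings.

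Igfbp5 at chr1:72858065-72874865, next to Igfbp2, encodes a binding protein that also attaches to extracellular matrix. Its level was 157, 161, 161, 170 and 171 CPM in control SS mice and 177, 153, 189, 186 and 181 CPM in control OS mice. The dnFGFR SS mice had 171, 170, 185, 150 and 180 CPM, and the dnFGFR OS mice had 171, 135, 204, 183 and 193 CPM. In control OS mice, 4 of 5 values were above all control SS values and 1 was below them. OS housing gave a log2 fold change of 0.11 in control mice (SE 0.0580, unadjusted p = 0.0695, adjusted p = 0.712 by edgeR). The other 3 values were 0.05 for housing in dnFGFR mice, 0.06 for genotype in SS mice and -0.0022 for genotype in OS mice. Igfbp5 correlated with the summed astrocyte markers at r = 0.716 (rho = 0.686; permutation p = 0.00061 and 0.00129; adjusted p of r = 0.0152), at 0.590 without the 2 mice farthest from the median, 0.548 in control and 0.770 in dnFGFR mice. It correlated with Irs1 at r = 0.678 (rho = 0.556; permutation p = 0.00118 and 0.0121; adjusted p of r = 0.0177 and of rho = 0.182), and at 0.513 without the 2 mice farthest from the median of Irs1.

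**Figure D3:**
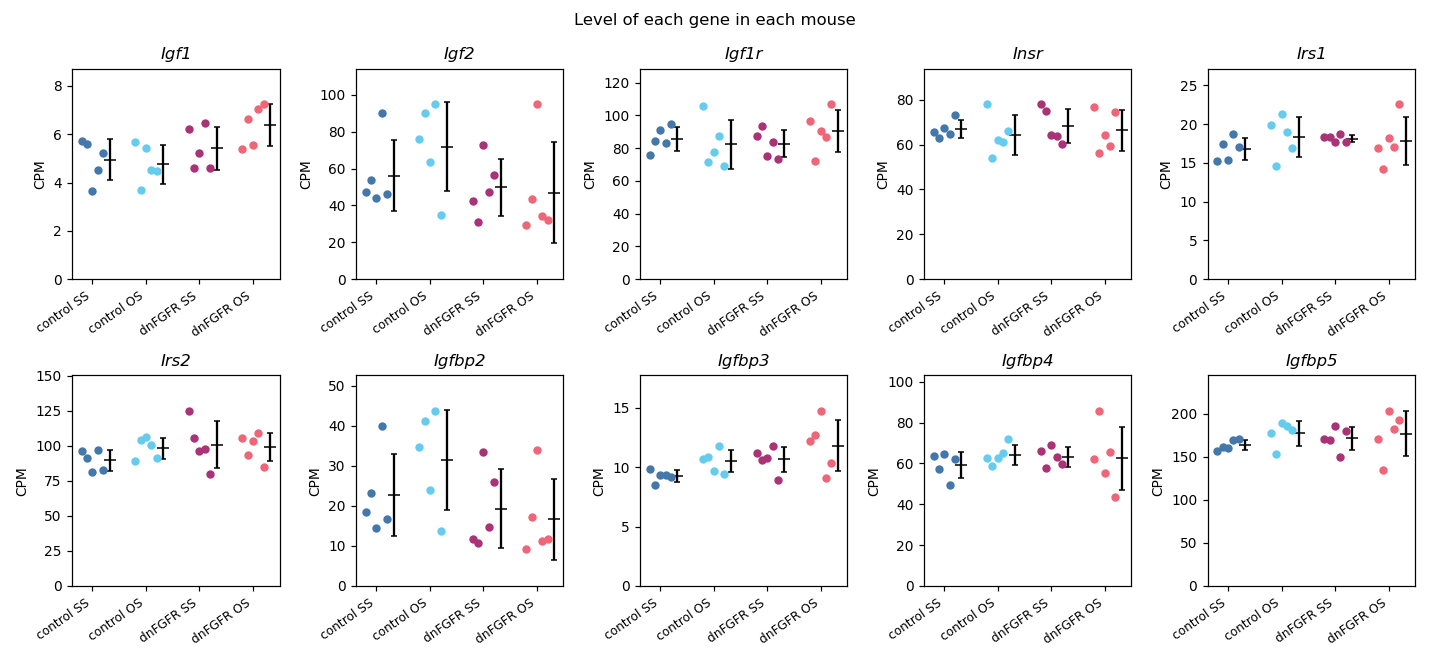
Level (CPM, axes from 0) of the 10 genes in each mouse of the 4 groups, with mean and SD beside the points (n = 5 mice per group). The groups overlap for every gene, and Igf2 and Igfbp2 have single mice far above the rest of a group, such as dnFGFR OS replicate 3 at 95.2 and 34.1 CPM.

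None of the 10 genes passed an adjusted p of 0.1 in any of the 5 comparisons, either by edgeR or by DESeq2. Among all genes, edgeR called 0.124% for OS housing in control mice, 0% for OS housing in dnFGFR mice, 0.2% for genotype in SS mice, 0.0531% for genotype in OS mice and 0% for the housing by genotype interaction, and DESeq2 called 0.923%, 0.0231%, 1.27%, 0.428% and 0.00451%. At an unadjusted p under 0.05, edgeR had 1 of 10 for housing in control mice (Igfbp3; 7.2% of all genes), 0 for housing in dnFGFR mice (6.72%), 1 for genotype in SS mice (Igfbp3; 8.63%), 2 for genotype in OS mice (Igf1 and Igfbp2; 7.02%) and 0 for the interaction (3.41%). DESeq2 had 0, 0, 1, 2 and 0 at the same limit. For none of the 10 were 2 groups without overlap, against 1.63%, 1.42%, 1.57% and 1.55% of all genes in the 4 comparisons of 2 groups.

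The directions were mixed. OS housing gave higher means for 7 of 10 genes in control mice (median log2 fold change 0.12 against 0.00 over all genes tested) and for 4 of 10 in dnFGFR mice (-0.02 against 0.00). The dnFGFR genotype gave higher means for 7 of 10 in SS mice (0.08 against 0.00) and for 5 of 10 in OS mice (0.01 against 0.00). The comparisons share groups, such as the control SS mice in 2 of them, so these directions are not independent of each other. In the interaction, 3 of 10 housing effects were more positive in dnFGFR mice, with a median of -0.10 against 0.00. The largest was that of Igfbp2, -0.69 (SE 0.537, adjusted p = 0.963 by edgeR), with a 95% interval from 0.286- to 1.34-fold.

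**Figure D4:**
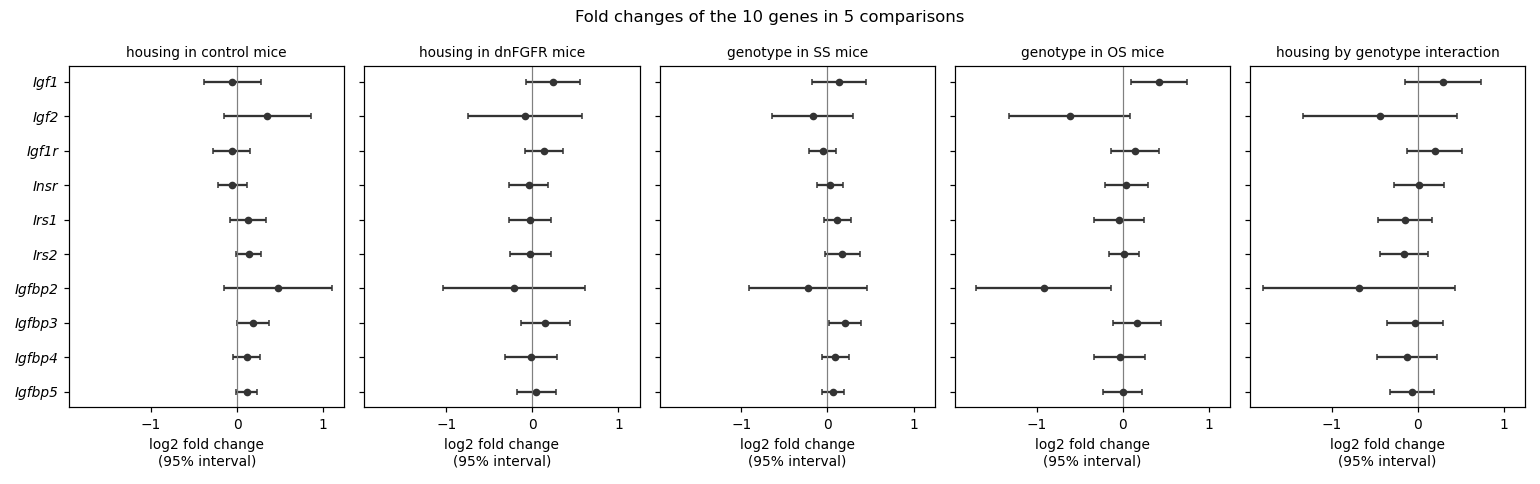
Log2 fold change (points) with 95% interval (bars) of the 10 genes in 5 comparisons, from edgeR with 5 mice per group. Housing is OS minus SS, genotype is dnFGFR minus control, and the interaction is the housing effect in dnFGFR mice minus that in control mice. The lowest adjusted p is 0.526, and the intervals of Igf2 and Igfbp2 are the widest.

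The other genes of the pathway were read from a list of 56, of which 49 were tested in the comparisons of 2 groups and 50 in the interaction. By edgeR 1 of 49 passed the threshold, Htra1 for OS housing in control mice, and DESeq2 also called it there. Of all genes, edgeR called 0.124% in that comparison and DESeq2 0.923%. HTRA1 is a secreted serine protease that cleaves IGF-binding proteins. It was at 103, 120, 116, 118 and 105 CPM in control SS mice and 134, 140, 132, 132 and 142 CPM in control OS mice, which did not overlap, as for 1.63% of all genes. It rose by 0.28 on the log2 scale (SE 0.0529, adjusted p = 0.0944 by edgeR). This call was near the threshold and was lost whenever any 1 of the 10 mice was left out (adjusted p 0.115 to 0.304), and on the dates that held both housings (0.21, adjusted p = 1.00). The dnFGFR mice had 130, 162, 180, 99.4 and 124 CPM under SS housing and 163, 158, 150, 137 and 116 CPM under OS housing, so that their groups overlapped.

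Besides the Htra1 call for housing in control mice, no pathway gene passed in any comparison by either tool. The counts that follow include Htra1. At an unadjusted p under 0.05 there were 2 of 49 for housing in control mice (4.08% against 7.2% of all genes), both higher, with Rheb, an activator of mTOR, at 0.15 after Htra1, and 3 of 49 for housing in dnFGFR mice (6.12% against 6.72%), all lower, led by the kinase gene Gsk3a (-0.26) and the transcription factor gene Foxo4 (-0.21). For genotype in SS mice there were 7 of 49 (14.3% against 8.63%), 5 higher and 2 lower, led by the insulin receptor-related receptor gene Insrr (-0.52) and Htra1 (0.31). For genotype in OS mice there was 1 of 49 (2.04% against 7.02%), Foxo4 (-0.19), followed by Igfbp7 (-0.27), and for the interaction 2 of 50 (4% against 3.41%), Foxo4 (-0.29) and Gsk3a (-0.30). Besides the Htra1 call, all had an adjusted p of 0.431 or higher by edgeR. Of the insulin genes, Ins1 had 0 reads and Ins2 37 reads over the 20 mice, at most 8 in a mouse, and Igfbp1 (19 reads), Igfals (42) and Igf2bp1 (20) were near 0.

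Genes whose level followed the remaining members were named by the highest r over the 20 mice, as a description. They were Bmt2 (r = 0.843), Slc4a10 (0.836) and Dnajc6 (0.833) for Igf1, Atad2b (0.904), Alms1 (0.856) and Luc7l (0.855) for Igf1r, and Mtx3 (0.860), Nvl (0.847) and Smg1 (0.840) for Insr. For Irs1 they were Klhl42 (0.868), Pigm (0.824) and Pcnx (0.821), and for Irs2 Snrk (0.872), Ccdc6 (0.728) and Map3k19 (0.725). For Igfbp3 they were Pth2r (0.788), Tbc1d13 (0.759) and 1700019D03Rik (0.756), for Igfbp4 1700120K04Rik (0.903), Syt5 (0.894) and Tmem132a (0.865), and for Igfbp5 1810062O18Rik (0.857), Parva (0.837) and Rhobtb1 (0.834). These values share the libraries and their depth and base composition, and 1700120K04Rik was at 0.274 CPM on average, where counting noise is large. Without dnFGFR OS replicate 5, r fell most for the genes like Irs1 and Igfbp4, to 0.751 for Pcnx and 0.796 for Tmem132a.

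For the other marker lists, none of the 12 leptomeningeal and perivascular, 8 endothelial and pericyte, 7 microglial, 6 oligodendrocyte, 7 neuronal, 7 striatal or 10 preoptic markers passed the test in any comparison by edgeR. Some summed levels still differed in range. The striatal sum was 2046 to 2889 CPM in dnFGFR OS mice, below the 2952 to 4084 CPM of the other 3 groups, and the endothelial and pericyte sum was 352 to 431 CPM in dnFGFR SS mice against 433 to 453 CPM in control SS mice. Of 6 astrocyte markers 1 rose with OS housing in control mice, and of 9 glucocorticoid-induced genes 4 rose there. Of all genes, 0.124% (21) were called in that comparison, and 0 without control SS replicate 4 or with all 4 groups in 1 fit. The lists were chosen with earlier results of these data known. The glucocorticoid sum was 625 to 845 CPM in control SS and 879 to 1072 CPM in control OS mice. The median log2 fold change of these 9 genes was 0.555 for OS housing in control mice. It was 0.758 for genotype in SS mice, where none of the 9 passed the test. Of the 100 relations between a gene and a marker list, 10 had an adjusted p under 0.1 for Pearson's r, among them those of Igf1 and Igfbp5 above. The others outside the choroid plexus were Igfbp4 with endothelial (-0.643), preoptic (-0.583) and glucocorticoid (0.580) genes, Igfbp3 with striatal (-0.630), Igfbp2 with neuronal (-0.566) and Irs2 with endothelial genes (-0.560), with permutation adjusted p of 0.0368 to 0.0979 for r and of 0.152 to 0.504 for rho. Without the 2 mice farthest from the median of the list, these r were -0.488, -0.427, 0.428, -0.380, -0.527 and -0.564, in the same order. Igfbp3 with striatal genes was at r = -0.00937 in control mice and -0.690 in dnFGFR mice. The part of these lists in the values of the 10 genes was not tested.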

How the data were processed

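Bulk RNA-seq covered the POA of 20 males. The authors mapped reads to GRCm38 with HISAT2, assigned them to RefSeq genes with Rsubread, and deposited whole-number counts without normalization. Whether counting used strand, and how it treated overlapping genes, is not given in the sources used here. The table also held 20 columns that match no sample, which were not used.

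Groups followed the labels. Counts were scaled by TMM, filtered with filterByExpr and tested with edgeR 4.0.16 (quasi-likelihood) in R 4.3.3, each pair of groups on its own 10 mice and the interaction on 20, with Benjamini-Hochberg adjusted p under 0.1 over all genes. Log2 CPM used a prior count of 2. RPKM used exon lengths of another annotation of GRCm38, which covered 96.5% of genes. DESeq2 1.42.0 was an alternative, beside RLE size factors, other filters, 4 groups in 1 fit, a replicate block, GC and length correction, sacrifice dates and each mouse left out. Correlations over the 20 mice were tested with 100000 permutations regardless of group, so differences between groups enter r and p. The edgeR comparisons were tested on simulated counts, but the correlations, GC slopes and promoter searches were not.

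The members and lists were chosen with earlier results of these data known. Named genes were the 10 members, pathway genes past the threshold or among the 2 smallest p per comparison, and the 3 genes most like each member. Replicates are separate mice. Promoters are from RefSeq on GRCm38.p6.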

Additional observations from a re-analysis of the deposited data

Results flagged for a closer look

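In 40 sets of 5 mice (10 genes in 4 groups), 1 held a mouse that stood apart from the other 4 by Dixon's test, where chance gives about 1 in 20 sets. Igf2 was at 89.9 CPM in control SS replicate 4 and at 44.0 to 53.8 CPM in the other 4 mice of that group, a gap of 0.718 of the group's range on the log2 scale. The same mouse had the highest Igfbp2 of its group, at 40.0 CPM, and the highest Ttr, at 966 CPM.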

How the results depend on the processing

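None of the 10 genes was called in any comparison under any alternative run. Of 1060 recomputed log2 fold changes of the 10 genes, 1049 stayed within 1 SE of the reported value, 11 moved by more, and 68 changed sign without a call. Genes called over the whole table for housing in control mice, 21 as reported, came to 157 with DESeq2, 32 with at least 10 counts in every mouse, 0 with all 4 groups in 1 fit, 41 with GC and length correction, 63 with this correction and the replicate block, 6 at an adjusted p under 0.05, 1 within dates that held both housings, and 0 to 32 with 1 mouse left out (0 without control SS replicate 4). For genotype in OS mice, 9 as reported, they came to 78 with DESeq2, 45 with 4 groups in 1 fit, 3 with the replicate block, 22 with GC and length correction, 5 at 0.05, and 3 to 16 with 1 mouse left out. For genotype in SS mice, 34 became 223 with DESeq2 and 21 to 70 with 1 mouse left out. DESeq2 gave 5 for housing in dnFGFR mice and 1 for the interaction, both 0 as reported. The pathway list's 1 call, Htra1 in control mice, became 0 with 4 groups in 1 fit, with the replicate block (adjusted p = 0.111), at 0.05, within the dates that held both housings, and 0 to 0 with 1 mouse left out. The cause of these changes was not tested. Same-numbered mice did not pair: their deviations correlated at -0.235 to 0.259, and no comparison had every pair above 0.1. At 130 to 251 reads per mouse, counting error is largest for Igf1.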
